A study of Mus musculus with 6 samples.

Results

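Solute carriers, the Slc genes, encode the membrane proteins that move amino acids, sugars, ions, metals, nucleosides and vitamins into cells and between their compartments. Described here are the 152 rows, of 10896 in the authors' deposited table, whose symbol starts with Slc and a digit, without the mitochondrial Slc25a family and without Slc16a1 and Slc11a2. They came from 40 Slc families and were sorted into substrate classes by family number, with exceptions for single genes. A growing oocyte draws part of its nutrients through gap junctions from the granulosa cells around it and part through carriers of its own. Glycine, taken up by the oocyte's own carrier, helps eggs to control their volume, and zinc stored in the oocyte is needed for the arrest and completion of meiosis.

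RNA was measured in 6 samples of 50 mouse oocytes each that were still in the germinal vesicle stage, ahead of the meiotic divisions, all from C57BL and CBA F1 females. The in vitro group, 3 samples, held oocytes grown in follicles that were freed with collagenase from the ovaries of females 10 to 12 days old and cultured on membrane inserts. The culture medium held 5% serum, insulin, transferrin, selenium and 0.01 µg/ml follicle stimulating hormone. The in vivo group, also 3 samples, held oocytes released by needle from ovaries of females 7 to 11 weeks old into a medium with dibutyryl cAMP. Donor age and the way of growth differ together between the groups and cannot be told apart. Ovaries of several young females were pooled for a culture, and nothing in the labels tells if samples of the same group stem from different cultures or animals, so p-values measure the spread between samples only, which may be technical.

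The deposited values are group means of normalised reads, a log2 ratio and a PPEE. PPEE is taken here, by the common use of that term, for the posterior probability of equal expression, although no source used here spells it out. A gene was called where its PPEE was below 0.05, and a mean taken from the authors' deposited table has no SD. For means up to 400 the whole reads behind a mean were solved library by library, which gave 7282 genes with values in all libraries, among them 113 of the 152 carriers. Letters A to C run from the largest to the smallest library of a group and do not stand for the labels' replicate numbers. Summed over the recovered genes, a library held between 664467 and 1034502 reads, and its total over all genes, worked out from the means, was between 5.53e+06 and 8.19e+06. Of the 13 oocyte markers all had a row, and their means summed to 125526 in vitro and 177445 in vivo, with 3 called lower in vitro, Bmp15, Kit and Nlrp5. Oosp1 (2471 in vitro and 1375 in vivo), Mos, Figla and Dazl had higher means in vitro and were not called. Of 15 granulosa and cumulus markers 8 had a row, and 3 of these, Fshr, Inha and Inhba, were called higher in vitro. Cyp19a1, Hsd17b1, Kitl, Ptgs2 and Nr5a2 were not called, and the means of Kitl and Nr5a2 were lower in vitro. The summed level of the 8 was 391, 526 and 431 normalised reads in vitro (libraries A, B and C in this order, here and below) and 287, 265 and 271 in the in vivo libraries. None of the 9 theca and stroma markers had a row, and of 8 blood and immune markers 2 did, Cd68, which was not called, and Pecam1, which was called lower in vitro. The part of other cells in the results below was not tested.

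Solute carrier transcripts were for the most part not called, and those that were called lay mostly lower in oocytes grown in vitro. Of the 152 carriers, 4 had a call higher in vitro and 12 a call lower by the PPEE of the authors' deposited table, which is 2.63% and 7.89% of them. Over all deposited genes 6.75% were called higher and 8.31% lower, so the share of lower calls lay near the background and that of higher calls below it. The median log2 change, in vitro over in vivo, was -0.16 over the carriers and 0.02 over all genes. A negative log2 change was found in 92 carriers and a positive one in 60, and over all 10896 genes in 5330 and 5566. At least a 2-fold difference was seen in 7 carriers upward (4.61%) and 7 downward (4.61%), against 6.24% and 4.23% of all genes. Of the carriers that far apart 9 had no call, as had 661 of all genes that far apart. Among other transporter genes, the 30 rows of the Slc25 family had 2 higher and 3 lower calls and a median of 0.06, and 32 ABC transporters had 0 higher and 2 lower calls and a median of -0.25. These differences between families were not tested.

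**Figure D1:**
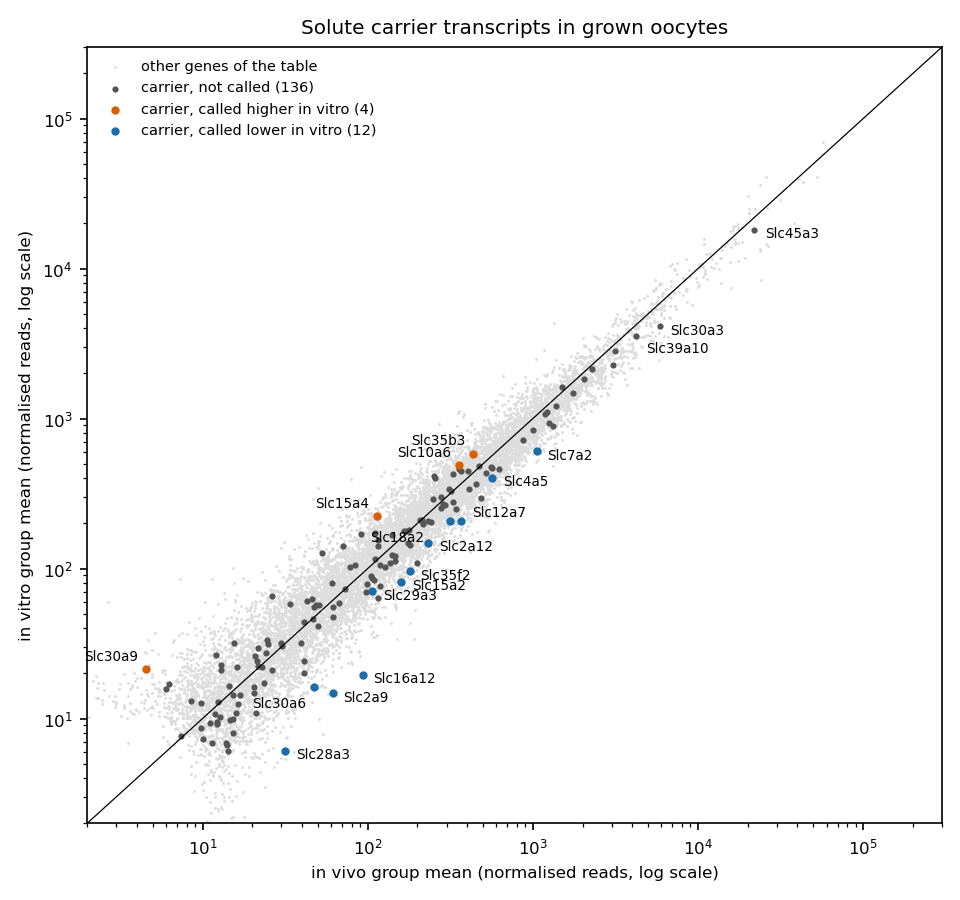
Group means of normalised reads in oocytes grown in vivo (x axis) and in vitro (y axis), both on log scales; each point is a gene, with the 152 solute carrier rows over all other genes in pale grey, and the line marks equal means. The 12 carriers called lower lie below the line at in vivo means up to 1053, and the 3 carriers with the highest means, Slc45a3, Slc30a3 and Slc39a10, lie close to it.

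With reads per library, limma voom called 1 of the 113 recovered carriers higher (0.885%) and 9 lower (7.96%), at a Benjamini-Hochberg adjusted p below 0.05 over all 7282 genes. The background was 4.55% called higher and 3.83% called lower. The 9 lower calls became 12 without in vitro library A, 2 without in vitro B and 1 without in vitro C. Without in vivo A, B and C they became 1, 2 and 5. The 1 higher call became 11 without in vitro library A and 0 without any other library. Over all 7282 genes 1040 were called higher and 598 lower without in vitro library A, against 331 and 279 with all libraries. Such counts over all genes are not given here for the other fits, so their lower numbers cannot be read as particular to the carriers. The in vitro libraries lay entirely above the in vivo libraries for 10 carriers (8.85%) and entirely below them for 18 (15.9%), where all recovered genes gave 17.4% and 15.1%. Of the 16 carriers called by PPEE, 12 had recovered reads. All 12 had groups that did not overlap, and limma voom called 10 of them. PPEE and limma voom rest on the same samples, so neither count is separate support for the calls.

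The largest called decreases were in a nucleoside carrier, a creatine carrier and a urate carrier. Slc28a3 (gene identifier 114304), which takes up nucleosides together with sodium, had 5.51, 10.4 and 2.48 normalised reads in vitro and 41.2, 29.2 and 24.8 in the in vivo libraries. Every in vitro library lay below every in vivo one, from few reads: 6, 10 and 2 whole reads in vitro. The mean was 6.12 ± 3.98 for in vitro and 31.8 ± 8.48 for in vivo libraries (SD, n = 3 libraries each), a log2 change of -2.41 ± 0.57 (SE) by limma voom with an adjusted p of 0.0243. Without in vitro library B the fold between the means went from 5.19 to 7.95. The call held in the fits that left out in vitro library A or in vivo library C, and was lost in the other 4 fits that left out a library (adjusted p up to 0.105 by limma voom).

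Slc16a12 (gene identifier 240638), which belongs to the monocarboxylate family by sequence and carries creatine, had 17.5, 22.8 and 18.6 normalised reads in vitro and 126, 70.0 and 84.7 in vivo. The in vitro libraries were close together, and in vivo library A was the highest. The means were 19.6 ± 2.81 and 93.6 ± 29.1 (SD, n = 3 libraries each), with a limma voom log2 change of -2.20 ± 0.36 (SE) and an adjusted p of 0.00602. It was the only recovered carrier called by PPEE that limma voom called in all 6 fits that left out a library, with adjusted p between 0.00202 and 0.0391.

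Slc2a9 (gene identifier 117591), a member of the glucose carrier family that carries urate, had 16.5, 17.6 and 9.93 normalised reads in vitro and 77.6, 45.2 and 62.1 in vivo, again without overlap. Its means were 14.7 ± 4.17 and 61.6 ± 16.2 (SD, n = 3 libraries each), with a limma voom log2 change of -2.01 ± 0.40 (SE) and an adjusted p of 0.0143. Limma voom kept its call in 4 of the 6 fits that left out a library and lost it without in vitro library C (adjusted p = 0.0776) or in vivo library A (adjusted p = 0.0752).

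The largest called increase was Slc30a9 (gene identifier 109108), a zinc carrier of the inner membrane of mitochondria. It had 8.27, 25.9 and 29.8 normalised reads in vitro and 5.66, 3.54 and 4.52 in vivo. Library A was nearer to the in vivo libraries than to the other in vitro libraries. The mean was 21.3 ± 11.5 for in vitro and 4.57 ± 1.06 for in vivo libraries (SD, n = 3 libraries each), and its PPEE was 0.0260 in the authors' deposited table. Limma voom did not call it with all libraries (log2 change 1.87 ± 0.68 (SE), adjusted p = 0.0913) and called it without in vitro library A (2.50, adjusted p = 0.00553). The other fits that left out a library did not call it, with adjusted p between 0.175 and 0.253 by limma voom. With a constant of 5 added to both means, the log2 change between them went from 2.08 to 1.46.

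The windows at the listed starts of these genes differed in base content. Each sequence is the RefSeq window of build GRCm38.p6 from 250 bases before to 50 after the listed start, on the gene's own strand, at chr13:58610828-58611127 (minus strand), chr19:34747279-34747578 (minus strand), chr5:38483336-38483635 (minus strand) and chr5:67306705-67307004 (plus strand). Capitals mark GGGCGG or CCAAT boxes on either strand.
Slc28a3: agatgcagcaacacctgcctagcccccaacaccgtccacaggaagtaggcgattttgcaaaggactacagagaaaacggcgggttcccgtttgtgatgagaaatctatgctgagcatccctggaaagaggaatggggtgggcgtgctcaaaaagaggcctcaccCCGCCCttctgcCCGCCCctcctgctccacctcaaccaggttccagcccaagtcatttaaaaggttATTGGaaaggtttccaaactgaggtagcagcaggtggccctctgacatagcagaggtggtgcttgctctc
Slc16a12: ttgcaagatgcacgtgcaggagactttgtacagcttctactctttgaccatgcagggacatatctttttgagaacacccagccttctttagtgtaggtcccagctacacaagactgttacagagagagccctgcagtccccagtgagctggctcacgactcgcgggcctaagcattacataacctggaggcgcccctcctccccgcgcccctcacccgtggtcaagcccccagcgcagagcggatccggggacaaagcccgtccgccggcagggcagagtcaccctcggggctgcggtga
Slc2a9: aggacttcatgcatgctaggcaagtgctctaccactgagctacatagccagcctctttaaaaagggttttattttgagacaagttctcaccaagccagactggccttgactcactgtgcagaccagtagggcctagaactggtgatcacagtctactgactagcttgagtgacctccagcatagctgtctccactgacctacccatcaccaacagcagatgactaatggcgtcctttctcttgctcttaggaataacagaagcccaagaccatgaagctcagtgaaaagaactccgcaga
Slc30a9: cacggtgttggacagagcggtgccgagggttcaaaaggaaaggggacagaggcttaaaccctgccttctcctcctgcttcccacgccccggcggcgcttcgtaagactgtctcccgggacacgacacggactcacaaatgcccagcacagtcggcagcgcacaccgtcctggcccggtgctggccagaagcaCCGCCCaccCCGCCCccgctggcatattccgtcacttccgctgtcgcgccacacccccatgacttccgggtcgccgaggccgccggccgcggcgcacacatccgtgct
The Slc30a9 window held 31 CG dinucleotides and 2 GGGCGG boxes, and that of Slc2a9 held 2 CG dinucleotides and no such box. The Slc28a3 window held 8 CG dinucleotides, 2 GGGCGG boxes and 1 CCAAT box, and the Slc16a12 window 16 CG dinucleotides and neither box. TATAAA, searched on both strands, was in none of the 4 windows. Of the carriers, 127 had a window that was used, at the first start listed for the gene. GGGCGG was in 61.4% of them and in 35.9% of the 27025 RefSeq windows used, CCAAT in 30.7% and 37.9%, and TATAAA in 10.2% and 14.2%. Of the 11 carriers called lower that had a window, 8 held GGGCGG, 3 held CCAAT and 2 held TATAAA. Of the 4 called higher, 2 held GGGCGG, 2 held CCAAT and 1 held TATAAA. These counts are small and were not tested. A match is only a run of letters. Whether a listed start is the one used in oocytes was not tested, so a window, such as that of Slc2a9, may not be the promoter. Both sets leave out the windows of a chromosome, and the 27025 include genes that do not code for protein and genes with no row in the deposited table.

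**Figure D2:**
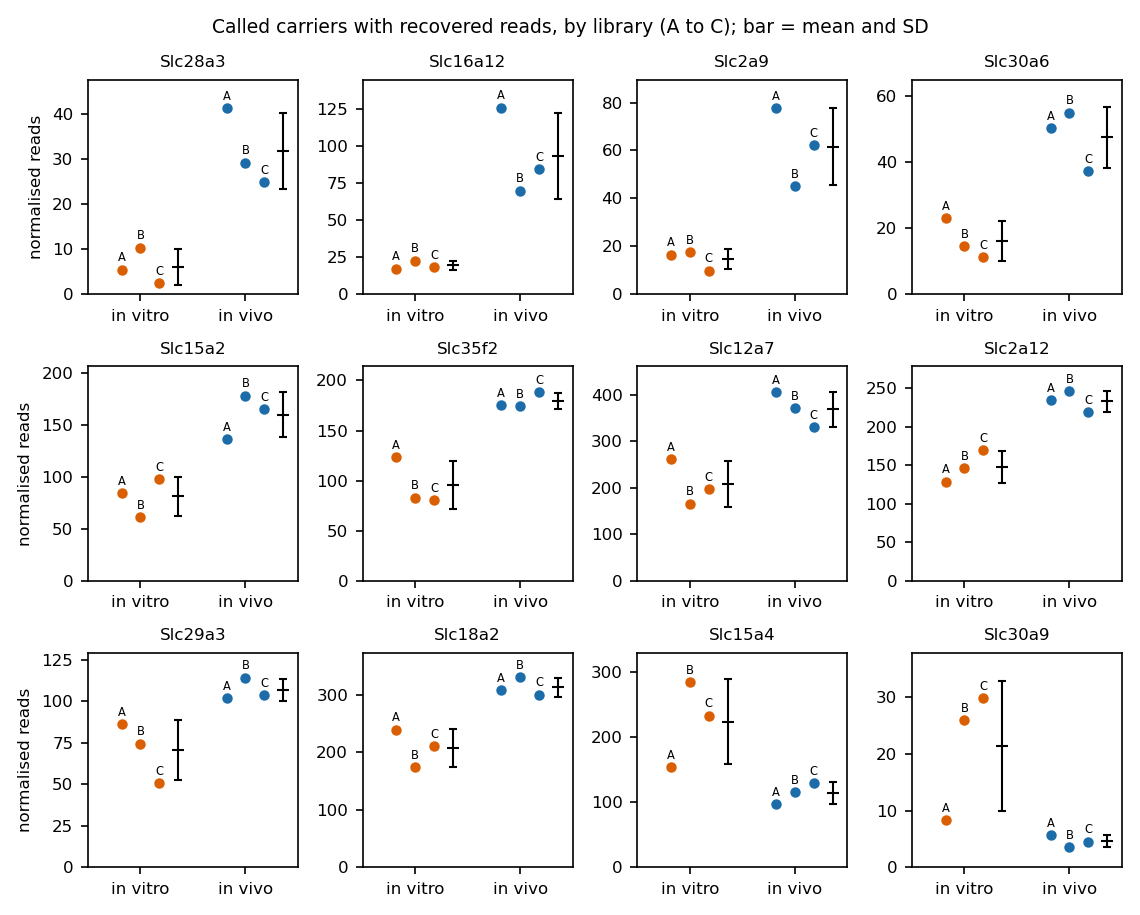
Normalised reads (y axis, from 0) of the 12 called carriers with recovered reads, in in vitro (orange) and in vivo (blue) libraries A, B and C; the black bar gives the mean and SD of 3 libraries. The genes were chosen by a PPEE from the same samples, so the separation is not separate support. In each panel the groups do not overlap. In vitro library A is the lowest of the in vitro libraries for Slc15a4, Slc16a12, Slc2a12 and Slc30a9.

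Amino acid and peptide carriers made the largest class, with 31 rows, of which 1 was called higher and 2 lower (median log2 change -0.14). The peptide carriers of the Slc15 family went both ways. Slc15a2 (gene identifier 57738), which takes up short peptides at the plasma membrane, had 84.5, 61.2 and 98.0 normalised reads in vitro and 136, 178 and 165 in vivo. Its means of 81.2 ± 18.6 and 160 ± 21.6 (SD, n = 3 libraries each) gave a limma voom log2 change of -0.99 ± 0.24 (SE) and an adjusted p of 0.0263. That call held without in vitro library A and in no other fit that left out a library (adjusted p up to 0.113 by limma voom). Slc15a4 (gene identifier 100561), which exports histidine and peptides from endosomes and lysosomes, had 154, 285 and 233 normalised reads in vitro and 97.0, 116 and 130 in vivo. It was the only recovered carrier that limma voom called higher, with means of 224 ± 65.8 and 114 ± 16.5 (SD, n = 3 libraries each), a log2 change of 0.93 ± 0.25 (SE) and an adjusted p of 0.0348. It kept that call without in vitro library A (adjusted p = 0.000525) and lost it in the other 5 fits that left out a library (adjusted p up to 0.142 by limma voom). Slc15a5, named after its values were seen, had 104, 120 and 114 normalised reads in vitro and 143, 146 and 152 in vivo, without overlap, with an adjusted p of 0.215 by limma voom.

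Slc7a2, a carrier of arginine and lysine, was called lower in the authors' deposited table, with means of 605 in vitro and 1053 in vivo, a fold of 1.74 and PPEE 0.00674. Its means were too high for reads per library. The carriers best known from oocytes were not called. Slc6a9, the glycine carrier that helps eggs to keep their volume, had means of 1110 in vitro and 1217 in vivo in the authors' deposited table (PPEE 0.977). Slc3a2, the heavy chain that Slc7 amino acid exchangers pair with, had 1612 and 1507 (PPEE 0.921) in the authors' deposited table. Of its light chains, Slc7a11, which exchanges cystine for glutamate, had 2142 and 2291 (PPEE 0.924) in the authors' deposited table, while Slc7a5 and Slc7a6 were low. Slc7a5, a carrier of large neutral amino acids, had 7.35, 18.7 and 21.1 normalised reads in vitro and 7.28, 6.20 and 4.52 in vivo. In vitro library A lay just above the highest in vivo library, and the adjusted p was 0.226 by limma voom, or 0.0439 without in vitro library A. In the other fits that left out a library it was between 0.307 and 0.465. Slc7a6 had 14.3 and 15.3 mean normalised reads in vitro and in vivo. Slc6a6, the taurine carrier, had means of 401 in vitro and 254 in vivo (PPEE 0.343) in the authors' deposited table. None of the 9 members of the Slc6 family, which also holds the serotonin carrier, was called. Their signs rest in part on single libraries: Slc6a7, a proline carrier, had 46.9, 121 and 159 normalised reads in vitro and 370, 136 and 87.0 in vivo, with in vivo library A far above the rest. Slc6a12, a carrier of betaine, had a lower mean in vitro and a positive limma voom log2 change of 0.98 (adjusted p = 0.564). Slc6a20a and Slc6a20b, carriers of proline-like amino acids, are near copies of each other and their reads may be split in an uncertain way.

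Carriers of sugars and polyols lay lower in vitro in 11 of 12 rows, and 2 of these, Slc2a9 and Slc2a12, were called (median log2 change -0.31). Over all genes 5330 of 10896 lay lower in vitro. Signs of low rows are uncertain, such as that of Slc2a13, with means of 7.32 in vitro and 10.1 in vivo and overlapping libraries. Slc2a12 (gene identifier 353169), a glucose carrier, had 129, 146 and 170 normalised reads in vitro and 234, 246 and 219 in vivo. The groups did not overlap. Its means were 148 ± 20.7 and 233 ± 13.6 (SD, n = 3 libraries each), with a limma voom log2 change of -0.68 ± 0.19 (SE) and an adjusted p of 0.0389. This call held without in vitro library A (adjusted p = 0.0401) and was lost in the other 5 fits that left out a library (up to 0.146 by limma voom). All 5 members of the Slc2 family had a negative log2 change, between -2.02 and -0.30. Slc2a1, the widely expressed glucose carrier, had means of 366 in vitro and 451 in vivo (PPEE 0.801) in the authors' deposited table. Slc2a10 had 103 and 128 mean normalised reads, with an adjusted p of 0.428 by limma voom. Slc45a3, a sugar carrier of the sucrose family, was the most abundant carrier by length, with means of 18158 in vitro and 21970 in vivo (PPEE 0.987) in the authors' deposited table. Slc5a3, the carrier of myo-inositol, had only 22.2 and 22.9 mean normalised reads.

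Changes among metal carriers ran from -1.51 to 2.08 on the log2 scale, with 1 call up and 1 down among 22 rows (median -0.16). Most Slc30 carriers move zinc out of the cytosol, into organelles or out of the cell, and Slc39 carriers move it into the cytosol. That direction is not claimed here for Slc30a9, the carrier of mitochondria. In the Slc30 family 3 of 8 members were at least 2-fold higher in vitro and 1 at least 2-fold lower, and in the Slc39 family none of 8 differed that much. Slc30a6 (gene identifier 210148), a zinc carrier of the Golgi, had 23.0, 14.5 and 11.2 normalised reads in vitro and 50.1, 54.9 and 37.3 in vivo. The groups were well apart, with means of 16.2 ± 6.09 and 47.4 ± 9.12 (SD, n = 3 libraries each), a limma voom log2 change of -1.53 ± 0.38 (SE) and an adjusted p of 0.0294. It kept its call without in vitro library A or in vivo library C and lost it in the other 4 fits that left out a library (adjusted p up to 0.120 by limma voom).

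Slc30a5, with which the protein of Slc30a6 forms a heterodimer, had 62.5, 170 and 150 normalised reads in vitro and 64.7, 41.6 and 53.1 in vivo. In vitro library A lay within the in vivo range and libraries B and C lay above it. With all libraries the adjusted p was 0.0664 by limma voom for a log2 change of 1.11 ± 0.36 (SE), and without in vitro library A it was 0.000328. In the other fits that left out a library it was between 0.124 and 0.215. Slc30a1, the zinc exporter of the plasma membrane, named after its values were seen, had 34.0, 78.8 and 83.1 normalised reads in vitro and 32.3, 29.2 and 16.9 in vivo. Library A was again the lowest in vitro library, with an adjusted p of 0.0769 by limma voom, or 0.00225 without it. No other fit that left out a library called Slc30a1. Slc30a4 had 73.5, 129 and 117 normalised reads in vitro and 83.3, 85.0 and 81.3 in vivo, with the same library below the in vivo values.

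**Figure D3:**
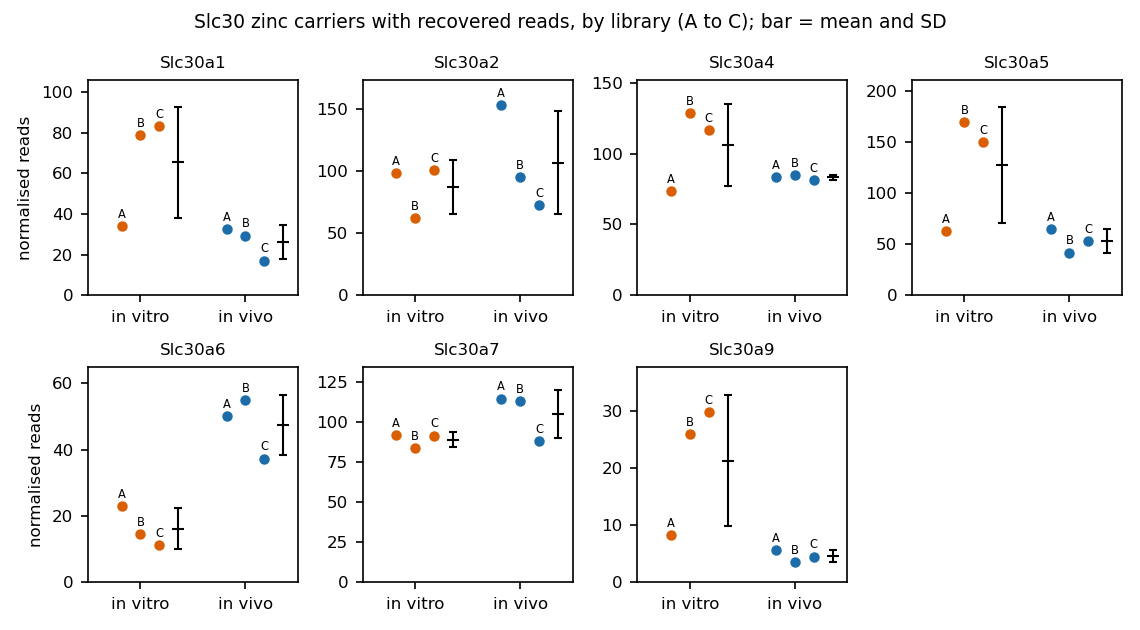
Normalised reads (y axis, from 0) of the 7 Slc30 zinc carriers with recovered reads, by library, with in vitro in orange and in vivo in blue; the black bar gives the mean and SD of 3 libraries. In vitro library A is at 34.0 for Slc30a1, 62.5 for Slc30a5 and 8.27 for Slc30a9, below in vitro libraries B and C in each, while Slc30a6 is lower in vitro in each library.

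The abundant zinc genes were not called. Slc30a3, known from synaptic vesicles, had means of 4129 in vitro and 5864 in vivo (PPEE 0.234) in the authors' deposited table. Slc39a10 and Slc39a6, zinc importers of the plasma membrane that oocytes are known to use, had 3553 and 4183 (PPEE 0.951) and 1848 and 2045 (PPEE 0.965) in the authors' deposited table. Slc31a1, the copper importer, had 333, 262 and 311 normalised reads in vitro and 258, 314 and 260 in vivo, which overlapped. Slc41a1, which moves magnesium, was lower in each in vitro library, at 77.2, 78.8 and 81.9 normalised reads against 93.8, 108 and 97.1, and did not pass (adjusted p = 0.350 by limma voom).

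Carriers of inorganic ions and pH, 30 rows, had 0 higher and 2 lower calls and a median log2 change of -0.01. Slc12a7 (gene identifier 20499), which carries potassium and chloride out of cells, had 262, 166 and 197 normalised reads in vitro and 405, 370 and 330 in vivo, without overlap. Its means were 208 ± 49.0 and 368 ± 37.7 (SD, n = 3 libraries each), and limma voom gave a log2 change of -0.84 ± 0.19 (SE) and an adjusted p of 0.0195, a call that held without in vitro library A or in vivo library C and was lost in the other 4 such fits (up to 0.0926). Slc12a2, which carries sodium, potassium and chloride inward, had 117, 244 and 160 normalised reads in vitro and 112, 127 and 93.7 in vivo. The overlap came from in vitro library A. Its adjusted p was 0.171 by limma voom, 0.0131 without that library and between 0.245 and 0.514 in the other such fits. Slc4a5, a cotransporter of sodium and bicarbonate, was 1.41-fold lower in vitro, at means of 401 and 568 (PPEE 0.000156) in the authors' deposited table. Slc4a7, another such cotransporter, named after its values were seen, had 90.1, 153 and 184 normalised reads in vitro and 82.5, 57.6 and 72.3 in vivo. Its adjusted p by limma voom was 0.0555, and 0.00137 without in vitro library A. No other such fit called it.

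Slc4a2, which exchanges chloride for bicarbonate and was not called, had 173, 104 and 91.8 normalised reads in vitro and 129, 178 and 113 in vivo. In vitro library A was the highest in vitro library here. All 5 Slc26 anion exchangers had negative log2 changes, between -0.44 and -0.02, and none was called.

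Carriers of nucleosides, vitamins and choline were lower in vitro in 11 of 14 rows, with 0 higher and 2 lower calls (median log2 change -0.24). Over all genes 5330 of 10896 were lower in vitro. Beside Slc28a3, the nucleoside carrier of lysosomes Slc29a3 (gene identifier 71279) was called (PPEE 0.0322) in the authors' deposited table. It had 86.4, 74.6 and 50.9 normalised reads in vitro and 102, 114 and 104 in vivo, without overlap, and limma voom did not call it (log2 change -0.60 ± 0.25 (SE), adjusted p = 0.129). Slc19a1, a folate carrier, had 176, 170 and 187 normalised reads in vitro and 188, 156 and 176 in vivo, which overlapped. Slc23a2, a vitamin C carrier, had means of 2810 and 3141 (PPEE 0.981), and Slc44a2, a choline carrier, 2291 and 3076 (PPEE 0.933) in the authors' deposited table. Slc43a3, which carries purine bases, had means of 844 and 1002 (PPEE 0.837) in the authors' deposited table. Choline carriers of lower level differed in sign. Slc44a1 had 31.2, 59.1 and 83.1 normalised reads in vitro and 31.5, 40.7 and 29.4 in vivo (adjusted p = 0.279 by limma voom, 0.0262 without in vitro library A). The other fits that left out a library did not call Slc44a1, with adjusted p between 0.334 and 0.649 by limma voom. Slc44a4, named after its values were seen, had 96.5, 44.6 and 50.9 in vitro and 128, 98.3 and 121 in vivo (adjusted p = 0.0621 by limma voom, 0.00513 without in vitro library A).

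Carriers of nucleotide sugars, which bring sugar donors into the Golgi for glycosylation, were the class with the highest median level among carriers proper, 153 normalised reads per kb of gene length. Of 11 rows 1 was called higher and 0 lower, with log2 changes between -0.57 and 0.42 (median 0.05). The called gene, Slc35b3 (gene identifier 108652), brings the sulfate donor into the Golgi and had means of 584 in vitro and 436 in vivo (PPEE 2.35e-05) in the authors' deposited table. Its partner in this role, Slc35b2, had 196, 179 and 159 normalised reads in vitro and 186, 164 and 146 in vivo, which overlapped. Slc35a4, the most abundant of the class, had means of 1487 and 1758 (PPEE 0.959) in the authors' deposited table.

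Carriers of lipids, acyl-CoA and bile acids had 7 rows, with 1 higher and 0 lower calls and a median log2 change of -0.38. Slc10a6 (gene identifier 75750), which carries sulfated steroids, was called 1.36-fold higher in vitro, with means of 490 and 359 (PPEE 3.27e-07) in the authors' deposited table. Its in vivo libraries stood at 343, 365 and 370 normalised reads, and its in vitro mean was too high for reads per library. Slc22a5, the carnitine carrier, had 71.7, 52.9 and 84.4 normalised reads in vitro and 120, 69.1 and 106 in vivo, which overlapped. Monocarboxylate and dicarboxylate carriers had 4 rows and no call. The most abundant, Slc16a13, had means of 483 and 470 (PPEE 0.967) in the authors' deposited table.

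Among the 18 carriers of organic ions, amines and other or unsettled substrates, 0 were called higher and 3 lower (median log2 change -0.19). Beside Slc16a12 these were Slc35f2 and Slc18a2. Slc35f2 (gene identifier 72022), whose substrates are only partly settled, had 123, 82.9 and 80.6 normalised reads in vitro and 175, 174 and 189 in vivo. Its in vivo libraries were close together and above each in vitro library, with means of 95.6 ± 23.9 and 180 ± 7.89 (SD, n = 3 libraries each), a limma voom log2 change of -0.91 ± 0.22 (SE) and an adjusted p of 0.0263. Its call held without in vitro library A and in no other fit that left out a library (adjusted p up to 0.116 by limma voom). Slc18a2 (gene identifier 214084), the vesicular carrier of monoamines, had 240, 174 and 211 normalised reads in vitro and 308, 331 and 300 in vivo. Its means of 208 ± 32.9 and 313 ± 16.1 (SD, n = 3 libraries each) gave a limma voom log2 change of -0.60 ± 0.17 (SE) and an adjusted p of 0.0452, which passed without in vitro library A and in none of the other 5 such fits (up to 0.165). The plasma membrane carrier of serotonin, Slc6a4, had means of 148 and 176 (PPEE 0.899) in the authors' deposited table. The rule also took 3 rows that are named after carriers without being carriers, Slc4a1ap, Slc7a6os and Slc9a3r1, and none was called.

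**Figure D4:**
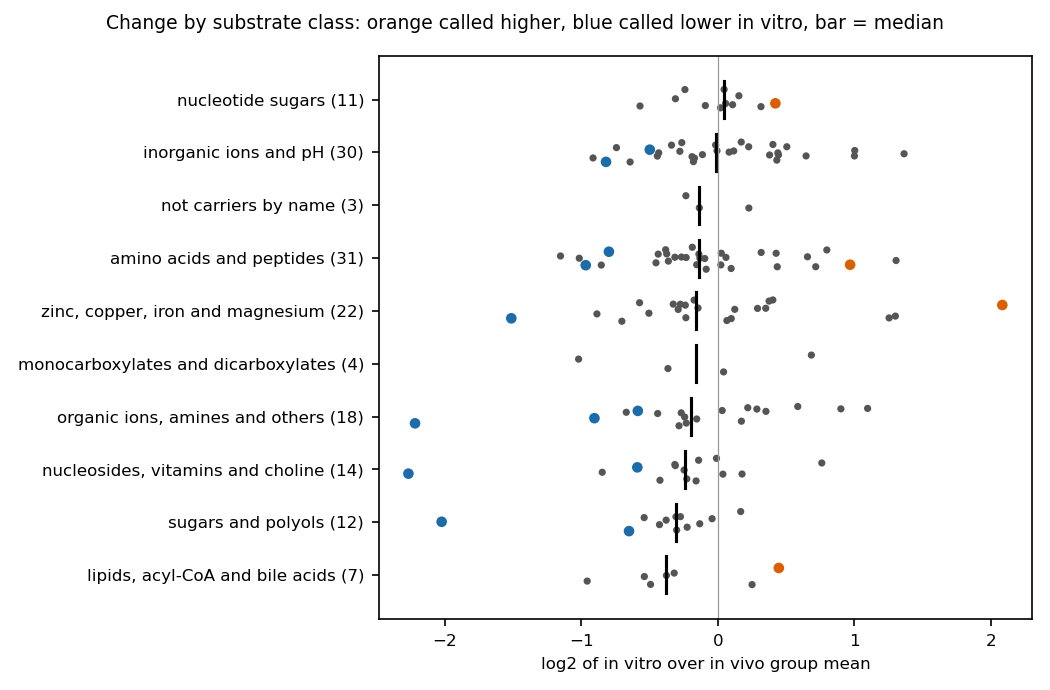
The log2 of in vitro over in vivo group mean (x axis) for the 152 rows by substrate class, with the number of rows in brackets; each point is a gene, orange where called higher and blue where called lower in vitro, and the black bar is the class median. Class medians run from -0.38 for lipids, acyl-CoA and bile acids to 0.05 for nucleotide sugars, and the metal class spans -1.51 to 2.08.

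A few genes made most of the carrier RNA. Levels per kb of gene length, averaged over both groups, ran from 1.30 normalised reads for Slc7a14, of the cationic amino acid carrier family, to 6141 for Slc45a3, with a median of 26.7. Slc45a3 alone made 29.7% of the summed level of all 152 rows, Slc45a3 and Slc30a3 together 41.7% and the 10 highest rows 63.5%. After these came Slc39a10 at 773, Slc44a2 at 773, Slc3a2 at 601, Slc35a4 at 576, Slc39a6 at 498, Slc4a1ap at 461, Slc23a2 at 459 and Slc6a9 at 356 normalised reads per kb. None of the 10 was called. The order of neighbours in this list, such as Slc39a10 and Slc44a2, cannot be set against a spread, since their means were too high for reads per library. The called carriers stood lower. The highest of these by length were Slc35b3 at 264 and Slc10a6 at 200, and Slc28a3 and Slc30a9 stood at 4.15 and 3.80 normalised reads per kb.

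**Figure D5:**
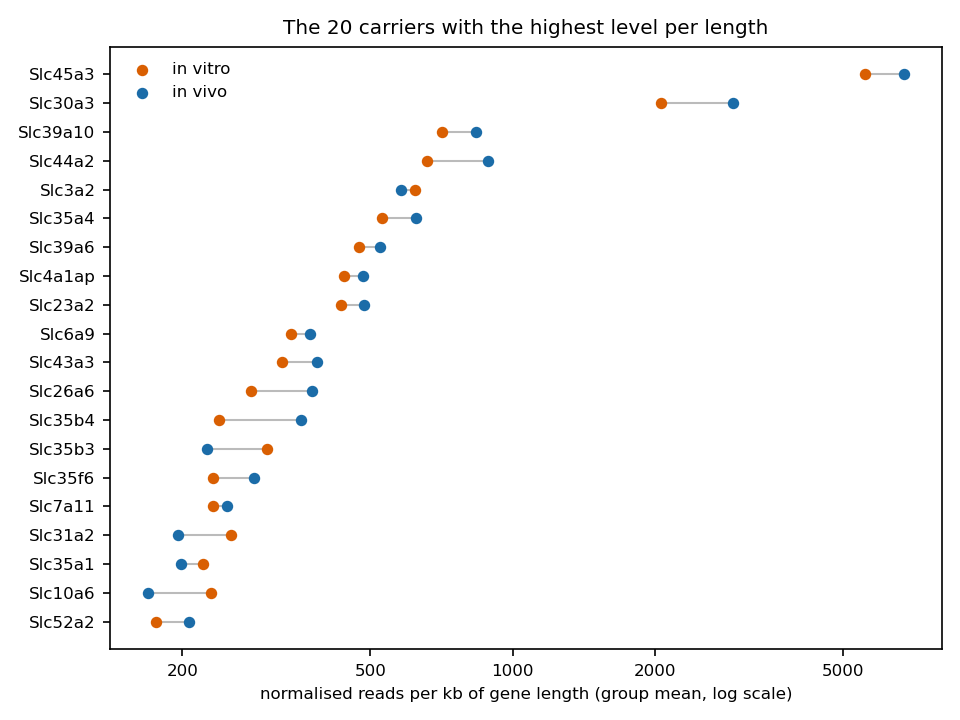
Group means per kb of gene length (x axis, log scale) of the 20 rows with the highest level, in vitro in orange and in vivo in blue, joined by a line. Slc45a3 stands at 5558 in vitro and 6725 in vivo, and the 2 called genes among the 20, Slc35b3 and Slc10a6, both stand to the right in vitro, at 303 and 231 against 226 and 169.

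Set against the RefSeq annotation of GRCm38.p6, 157 of 326 protein-coding genes with a fitting symbol had a row (48.2%), as did 48.2% of all protein-coding genes. The 157 include genes that the deposited table lists under another symbol. The share with a row was 78.6% for nucleotide sugar carriers (11 of 14), 69.7% for metal carriers (23 of 33) and 23.5% for monocarboxylate and dicarboxylate carriers (4 of 17). Of 26 carriers listed for their known roles in oocytes or cumulus cells, 16 had a row and 0 of these were called by PPEE, where 15.1% of all genes were called in either direction, so a count of 0 among so few says little. The 10 without a row, not analysed here, were Slc38a2, Slc38a3, Slc1a5, Slc2a3, Slc2a8, Slc16a3, Slc16a7, Slc8a1, Slc29a1 and Slc6a8.

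The calls of limma voom depended on single libraries. Leaving out any library other than in vitro library A left between 1 and 5 lower calls. Counts over all genes in those fits are not given here. Without in vitro library A limma voom called 11 recovered carriers higher and 12 lower, where it had called 1 and 9 with all libraries. Each call made with all libraries was kept in that fit. Over all 7282 genes such calls went from 331 to 1040 higher and from 279 to 598 lower. The 11 carriers called higher without it were Slc12a2, Slc12a5, Slc15a4, Slc22a23, Slc30a1, Slc30a5, Slc30a9, Slc35g1, Slc44a1, Slc4a7 and Slc7a5, at log2 changes between 0.85 and 2.50. No carrier was called higher in a fit that left out any other library. The carriers newly called lower were Slc26a9, Slc44a4 and Slc9a4, in which library A was the highest in vitro library, as for Slc26a9 with 337, 196 and 217 normalised reads. Over the 113 recovered carriers library A was the highest in vitro library in 48 and the lowest in 43, so it did not lie to 1 side of the others. Over all 7282 recovered genes library A was the highest in vitro library in 2345 and the lowest in 2910. Library A had the smallest summed level of the 8 granulosa markers among the in vitro libraries, 391 normalised reads against 526 and 431, and the part of this in the result was not tested. The median log2 difference of the 113 carriers from the in vivo mean was -0.04 in in vitro library A, -0.23 in B and -0.14 in C, while over all recovered genes it was 0.01, 0.07 and 0.02.

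Of 40 partner genes listed (pumps that make ion gradients, carrier chaperones, kinases of ion cotransporters, gap junction proteins and the mitochondrial pyruvate carrier), 37 had a row, with 6 called higher (16.2%) and 2 lower (5.41%) in the authors' deposited table (median log2 change 0.27), where all genes gave 6.75% and 8.31%. Atp1b3, a subunit of the sodium and potassium pump, had means of 207 ± 69.7 and 88.1 ± 21.5 in vitro and in vivo libraries (SD, n = 3 libraries each), with a limma voom log2 change of 1.18 ± 0.28 (SE) and an adjusted p of 0.0263. Cab39, an adaptor that activates the kinases of ion cotransporters, had means of 188 ± 44.7 and 98.8 ± 21.0 (SD, n = 3 libraries each), with a log2 change of 0.91 ± 0.24 (SE) and an adjusted p of 0.0350 by limma voom. In vitro library A had the fewest whole reads in vitro for Atp1b3, 141 against 220 and 213. The same held for Cab39, at 149 against 202 and 176. Fits that left out a library are not given here for Atp1b3 and Cab39, so how far their calls hold cannot be told. In the authors' deposited table Gja4, the gap junction protein of the oocyte itself, was 1.37-fold higher in vitro (PPEE 1.67e-07). Of the vesicular proton pump 3 subunits were called higher, Atp6v0b, Atp6v1d and Atp6v1g1, and 1 lower, the accessory subunit Atp6ap1, at 2.34-fold in the authors' deposited table. Nedd4l, a ubiquitin ligase that removes ion channels and carriers from the membrane, was called lower by 1.43-fold in the authors' deposited table. Bsg and Emb, chaperones of the monocarboxylate carriers, were not called (PPEE 0.119 and 0.150) in the authors' deposited table.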

How the data were processed

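RNA of 6 samples of oocytes was sequenced from cDNA amplified from 10 ng of total RNA, per the labels' protocols. BWA and the build mm9 were named without a version, per the submitters' processing notes. The authors deposited 1 table holding for each gene 2 signal columns (group means of normalised reads), a log2 ratio, a gene length and a PPEE. How the authors scaled the means, counted reads and obtained the PPEE is not given in the sources used here. The deposited log2 ratio follows from both means after adding 0.599 to each.

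The planned tests took the mean columns as they are. Since each mean adds up whole reads weighted by a factor of their library, these factors were read from differences between low means, and means up to 400 were solved for whole reads to 10 significant digits. Exactly 1 solution existed for 94.7% (in vitro) and 95.7% (in vivo) of them. Values shifted off the grid gave at least 1 solution in 3.31% and 5.55% of cases, and in 18.1% and 32.6% for means of 300 to 400. The size factors of libraries A, B and C came to 1.09, 0.965 and 0.806 (in vitro) and 1.24, 1.13 and 0.885 (in vivo). Amplified reads without molecular identifiers are not independent molecules, so this depth bounds counting error only.

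Recovered reads were fitted with limma voom (limma 3.58.1, R 4.3.3), with library sizes scaled by these factors, as a 2-sided test with Benjamini-Hochberg adjustment over 7282 genes. The steps were tested on simulated data. Alternatives were a stricter PPEE, a minimum fold, a filter on low means, other constants, quantile normalisation, limma trend and leaving out each library. Named were all called carriers, the 10 of highest level per length and a list of oocyte carriers, of which 1 is not reported here, and others were named after their values were seen. Members and lists were chosen with earlier results of these data known. All 152 gene identifiers were matched in the RefSeq table of GRCm38.p6, used for promoters and annotated names only.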

Additional observations from a re-analysis of the deposited data

How the results depend on the processing

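No paired analysis was possible because neither the columns of group means nor the recovered libraries carry the replicate numbers of the labels. Of the 4 carriers called higher by PPEE, 2 were left at a PPEE below 0.01 and 2 with at least a 1.5-fold change, while the 12 called lower became 11 under either. A filter at a mean of 10 or centring on the median of all genes left both counts at 4 and 12. The median log2 change of the carriers lay between -0.17 and -0.15 under its alternatives. With a constant of 5 added to the means, 6 of the 38 named carriers, all of low level, moved toward 0: Slc30a9 from 2.08 to 1.46, Slc28a3 from -2.27 to -1.73, Slc2a9 from -2.02 to -1.76, Slc30a6 from -1.51 to -1.31, Slc7a5 from 1.30 to 0.91 with Slc16a12 as the other. On recovered reads, the 1 higher call became 6 with limma trend and 0 for means up to 200 only, the latter an alternative chosen after seeing the data that tests fewer genes and leaves out Slc15a4. Leaving out each library gave between 0 and 11 higher calls (11 without in vitro library A) and between 1 and 12 lower calls, where 9 were called with all libraries. The fits that left out a library other than in vitro library A called at most 5 carriers lower, and counts over all genes in those fits are not given here. Among the named carriers with recovered reads, 39 such fits lost a call and 5 gained one, and no called log2 change turned its sign. The cause was not tested. Depth limits the low carriers: Slc28a3, Slc16a12, Slc2a9, Slc30a6 and Slc30a9, the called carriers with the largest folds, and the uncalled Slc7a5, Slc7a6 and Slc5a3 had fewer than 30 normalised reads in each in vitro library.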
